A study of Mus musculus with 12 samples.

Results

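The genes described are those of cytochrome P450 families 1 to 4 in the mouse, taken as every gene whose symbol on the array starts with Cyp, a family number from 1 to 4, a subfamily letter and a gene number. The rule found 49 genes among the 12393 genes of the array, with 62 of its 22626 probe sets. Of these, 58 probe sets were listed with 1 gene, and 4 were listed with more than 1 gene, so that their signal could not be given to a single gene. Cyp2a4, Cyp2a5, Cyp2r1 and Cyp4a10 had no probe set of their own here.

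Cytochrome P450 enzymes hold a heme group and insert an oxygen atom into their substrates, using electrons that NADPH supplies through P450 reductase. Enzymes of families 1 to 3 oxidise most drugs, carcinogens and steroids that reach the liver, while many family 4 enzymes hydroxylate fatty acids and eicosanoids at the end of the chain. Hepatocytes carry the largest share of these enzymes, and in the lung they are found mainly in club cells, other epithelial cells and endothelium. Their transcription is set by ligand-activated factors, among them the Ah receptor for family 1, the receptors CAR and PXR for the Cyp2b, Cyp2c and Cyp3a genes, and PPAR alpha for the Cyp4a genes.

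RNA from liver and lung of female NCR nude mice was measured on Affymetrix expression arrays, 1 array for each tissue sample. Tumor-bearing mice carried 4T1 cells, a mouse mammary carcinoma line, grafted orthotopically, and control mice were given phosphate-buffered saline (PBS) by the same route. All tissues were taken on day 7, and each of the 4 groups (tumor liver, control liver, tumor lung and control lung) held 3 arrays. The nude mutation leaves these mice without a functional thymus and with few mature T cells, in both the tumor-bearing and the control groups, and the labels call the organs of the tumor-bearing mice pre-metastatic.

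All values are log2 GCRMA values as deposited, and the number of arrays, not a read depth, limits the precision. Every array shared the same lowest value of 2.04, and 26.7% to 28.5% of the values of an array lay within 0.05 of it. A gene was tested in a tissue when it read above 4 on at least 3 of the 6 arrays, and it was called when limma's p, adjusted by Benjamini-Hochberg over all genes tested, was under 0.05. The 8 hepatocyte markers on the array averaged 15.91 to 16.05 in livers, and the 5 alveolar type II markers averaged 14.34 to 14.66 in lungs. The hepatocyte markers averaged 10.81, 5.54 and 5.16 in tumor lungs 1 to 3, and 6.91, 4.97 and 11.72 in control lungs 1 to 3. Tumor lung 1 and control lung 3 thus stood apart with more hepatocyte RNA. These arrays bear on every P450 gene that hepatocytes also transcribe. Lung differences are given with and without both of them for Cyp4f18, Cyp1a1, Cyp2b10, Cyp2s1 and Cyp2e1. For other genes, among them Cyp4f15 and Cyp3a13, the difference without both is not given. The labels name no scan date or batch.

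Of the 49 genes, 40 were tested in liver and 14 in lung. 13 of them were tested in both tissues, 27 in liver alone, 1 (Cyp4f18) in lung alone and 8 in neither. Among these 8, Cyp2b19, Cyp2c55, Cyp2c65, Cyp2d34 and Cyp2j13 lay at the lowest value on all 12 arrays. Cyp1b1, which metabolises estrogens and polycyclic hydrocarbons, reached at most 3.13, Cyp4a31 at most 2.19, and Cyp4a12a, a gene known for its male bias, read above 4 in control liver 3 only, at 4.16. Of the 41 genes tested in either tissue, 34 read lower on every lung array than on any liver array and 6 read higher on every lung array. Those 6 were Cyp1a1, Cyp2b10, Cyp2f2, Cyp2s1, Cyp4b1 and Cyp4f18.

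**Figure D1:**
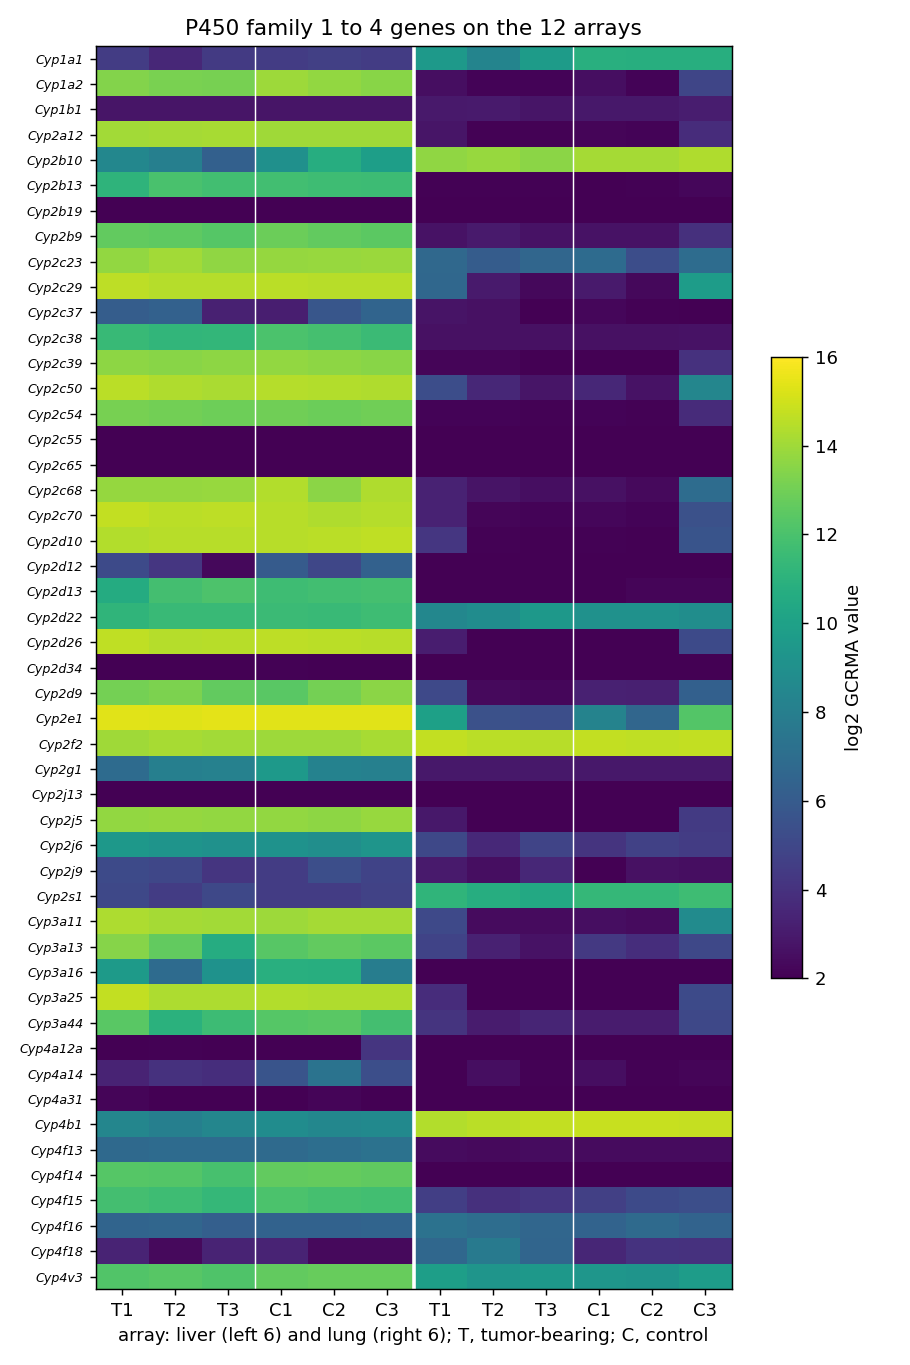
log2 GCRMA value (colour) of the 49 genes (rows) on the 12 arrays (columns), with liver on the left, lung on the right and tumor-bearing before control arrays within each tissue. Most rows are bright on the liver arrays and dark on the lung arrays, Cyp1a1, Cyp2b10, Cyp2f2, Cyp2s1, Cyp4b1 and Cyp4f18 are brighter in lung, and liver genes such as Cyp2c29 and Cyp3a11 brighten in tumor lung 1 and control lung 3.

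Cyp4f18, which hydroxylates the neutrophil attractant leukotriene B4 and is found in mouse neutrophils, rose in the lungs of tumor-bearing mice. It read 6.66, 7.73 and 6.59 in tumor lungs 1 to 3, against 3.52, 4.02 and 3.98 in control lungs 1 to 3. Every tumor lung lay above every control lung. The means were 6.99 ± 0.64 in tumor lungs and 3.84 ± 0.28 in control lungs (SD, n = 3 each), a fitted difference of 3.15 ± 0.34 (log2, SE), with a limma adjusted p of 0.0253. The control arrays lay at or close to the filter value of 4, so the size of the difference is uncertain and no fold is given, and the tumor arrays alone were enough to bring the gene into the test. It was the 1 gene called among the 14 tested in lung, where 0.734% of the 7907 genes tested were called and 0.62% were called higher. The call depended on the number of arrays. Leaving out any single lung array put the adjusted p between 0.0648 and 0.126, with a difference of 2.79 to 3.35, and without tumor lung 1 and control lung 3 the difference was 3.39 with an adjusted p of 0.326. Without a filter on low values the adjusted p was 0.124.

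In liver Cyp4f18 stayed below the filter and was not tested there. It read 3.37, 2.34 and 3.37 in tumor livers 1 to 3 and 3.37, 2.34 and 2.37 in control livers 1 to 3, so the groups overlapped. Fitted over all 12 arrays, taken as independent samples, lung minus liver came to 2.82 ± 0.57 (log2, SE), with a limma adjusted p of 0.0410. With every liver value below the filter this fit mostly restates the lung difference, and a differing response of the tissues cannot be read from it. Leaving out any single array put this adjusted p between 0.0553 and 0.0950.

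Neutrophil markers moved with Cyp4f18. All 9 of the 10 listed markers that the array held read higher in every tumor lung than in every control lung, and Camp, Ltf, Mmp8 and Ngp passed the threshold. Camp, Ltf, Mmp8 and Cxcr2 read below 4 in every control lung and so entered the test through the tumor lungs alone, while Ngp read above 4 on all lung arrays. The mean of the 9 markers was 10.12, 10.61 and 9.64 in tumor lungs 1 to 3, against 5.55, 6.55 and 5.95 in control lungs 1 to 3. Mmp8, the neutrophil collagenase, read 6.45 to 6.83 in tumor lungs and 2.45 to 2.81 in control lungs. In liver the mean of the same markers was 4.67 to 4.90 in tumor livers and 3.30 to 4.29 in control livers, and none of the 4 tested was called (smallest limma adjusted p = 0.0817, for S100a9). Of these 4, S100a8, S100a9 and Ngp lay higher in every tumor liver than in every control liver, by 4.21, 3.13 and 0.72. Csf3r overlapped, and 10.4% of all genes tested in liver lay above without overlap. The other 5 stayed below 4 on every liver array, with Ltf at 2.06 to 2.19. In bulk tissue, more or fewer cells of a type and more or less RNA per cell cannot be told apart, and the part of neutrophils in the Cyp4f18 value was not tested.

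**Figure D2:**
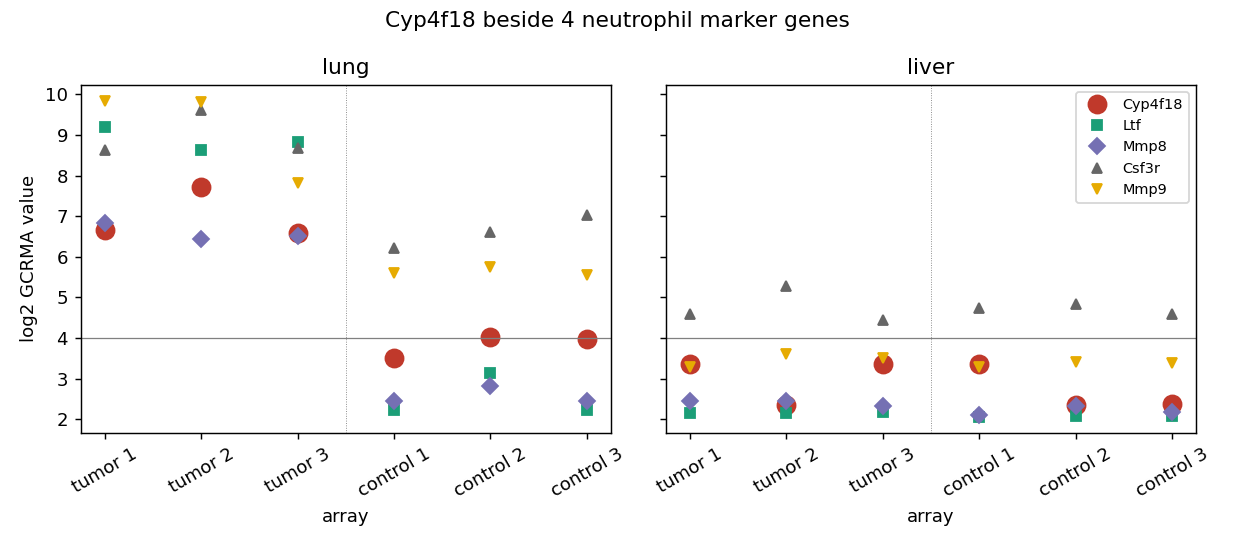
log2 GCRMA value (vertical axis) of Cyp4f18 and of the neutrophil genes Ltf, Mmp8, Csf3r and Mmp9 on each array (horizontal axis), with lung on the left, liver on the right, tumor-bearing arrays before control arrays and a grey line at the filter value of 4. In lung all 5 genes lie higher on the tumor arrays than on the control arrays, and Cyp4f18 reads 6.59 to 7.73 there, while in liver Cyp4f18 stays at 2.34 to 3.37 in both groups. The markers S100a8, S100a9 and Ngp, not drawn here, lay higher in every tumor liver than in every control liver.

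The start region of Cyp4f18 is shown because this gene carried the lung call. It is taken from RefSeq (GRCm38.p6, chr8:72009577-72009876, minus strand, 250 bases before to 50 after the annotated start), and capitals mark a core of the kind that the myeloid factor PU.1 binds, GAGGAAG, here on the opposite strand.
Cyp4f18: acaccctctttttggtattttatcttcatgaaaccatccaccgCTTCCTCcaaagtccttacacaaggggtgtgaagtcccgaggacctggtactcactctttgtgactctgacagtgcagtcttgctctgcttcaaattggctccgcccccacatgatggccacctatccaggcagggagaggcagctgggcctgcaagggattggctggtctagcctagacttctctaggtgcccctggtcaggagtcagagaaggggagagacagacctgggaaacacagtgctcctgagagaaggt
The core begins at position -207 relative to the start. On either strand it occurs in 13.63% of the 32851 regions of this length in the table and in 5 of the 45 regions of the P450 genes, which belong to 39 of the 49 genes. The match describes these letters and is not evidence of binding.

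The lower lung values were found in Cyp1a1, Cyp2b10, Cyp2s1, Cyp4b1 and Cyp4f15, none of which was called. Cyp4f15 lay near the filter value of 4. All 5 genes read lower in every tumor lung than in any control lung, and each had an unadjusted p under 0.05. With Cyp4f18 that was 1 gene higher and 5 lower at this unadjusted level, where 6.72% of all genes tested were higher and 6.46% lower. Together with Cyp4f18, which entered the test through the tumor lungs, that made 6 of 14 genes tested (42.9%) whose groups did not overlap, where 18.6% of all genes tested had groups that did not overlap, 8.99% above and 9.57% below. 8 of the 14 differed by less than 0.5 in either direction, against 88.7% of all genes. The median difference of the 14 genes was -0.18, against -0.01 over all genes tested in lung. 9 of the 14 had a lower mean in tumor lungs, and 53% of all genes did.

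Cyp1a1, the classic Ah receptor target that oxidises polycyclic aromatic hydrocarbons, read 9.57, 8.34 and 9.69 in tumor lungs 1 to 3, against 10.85, 10.78 and 10.79 in control lungs 1 to 3. The control lungs lay close together and the tumor lungs were all lower, with tumor lung 2 lowest. The difference was -1.61 ± 0.36 (log2, SE), with a limma adjusted p of 0.145, and it was -1.80 without tumor lung 1 and control lung 3. With all 12 arrays in a single fit, which shares the spread of liver and lung and takes the arrays as independent, the same difference had an adjusted p of 0.0297. In liver Cyp1a1 was near the filter value, at 4.48, 3.58 and 4.38 in tumor livers 1 to 3 and 4.51, 4.67 and 4.48 in control livers 1 to 3 (difference -0.41, limma adjusted p = 0.359). The groups overlapped in liver at 4.48. The difference between the tissues' effects was -1.20 ± 0.47, with an adjusted p of 0.232.

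Cyp1a2, which oxidises caffeine and aromatic amines and is made mainly by hepatocytes around the central vein, read 13.38, 13.16 and 13.10 in tumor livers 1 to 3, against 13.93, 13.70 and 13.52 in control livers 1 to 3. Every tumor liver lay below every control liver. The difference was -0.50 ± 0.14, with a limma adjusted p of 0.103, so it did not pass the threshold. In lung Cyp1a2 read above 4 in control lung 3 only, at 4.92, the array with the most hepatocyte RNA.

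Cyp1a1 and Cyp1a2 are neighbouring genes that share regulation by the Ah receptor, and their start regions are shown with that of Cyp2b10, whose groups were apart in both organs. All are RefSeq regions of GRCm38.p6 from 250 bases before to 50 after the start, and capitals mark the Ah receptor core GCGTG on either strand (CACGC on the opposite strand) and the TATA box letters TATAAA. Cyp1a1 lies at chr9:57697363-57697662 (plus strand), Cyp1a2 at chr9:57683606-57683905 (minus strand) and Cyp2b10 at chr7:25897408-25897707 (plus strand).
Cyp1a1: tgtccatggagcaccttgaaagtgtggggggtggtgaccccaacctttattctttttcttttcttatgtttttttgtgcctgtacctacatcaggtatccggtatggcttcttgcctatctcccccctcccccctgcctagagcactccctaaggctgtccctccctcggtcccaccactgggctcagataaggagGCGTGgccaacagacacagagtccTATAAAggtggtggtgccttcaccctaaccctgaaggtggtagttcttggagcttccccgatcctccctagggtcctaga
Cyp1a2: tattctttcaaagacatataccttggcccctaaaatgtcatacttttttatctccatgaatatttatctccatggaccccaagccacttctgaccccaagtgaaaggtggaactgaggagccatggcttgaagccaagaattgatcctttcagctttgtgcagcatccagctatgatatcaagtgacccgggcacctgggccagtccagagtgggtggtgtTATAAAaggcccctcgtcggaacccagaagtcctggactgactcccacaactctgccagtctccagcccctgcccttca
Cyp2b10: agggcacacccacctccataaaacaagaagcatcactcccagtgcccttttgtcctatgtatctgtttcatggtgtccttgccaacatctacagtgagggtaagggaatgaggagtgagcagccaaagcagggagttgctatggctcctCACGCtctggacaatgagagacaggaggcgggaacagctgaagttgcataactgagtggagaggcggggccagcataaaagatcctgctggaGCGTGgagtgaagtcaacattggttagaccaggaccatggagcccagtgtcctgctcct
GCGTG stands at position -54 and TATAAA at position -30 in Cyp1a1, TATAAA stands at position -29 in Cyp1a2, and GCGTG occurs once on each strand in Cyp2b10. GCGTG was found in 32.39% of all 32851 regions and in 10 of the 45 P450 regions, and TATAAA in 13.62% of all regions and in 17 of the 45. Counting covered both strands, and the motifs do not overlap each other in these 3 regions.

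The Ah receptor gene itself fell in liver. Ahr read 10.04, 10.14 and 9.97 in tumor livers 1 to 3, against 10.88, 10.98 and 10.92 in control livers 1 to 3, a difference of -0.88 ± 0.08 with a limma adjusted p of 0.0323. In lung Ahr read 11.60, 11.10 and 11.13 in tumor lungs and 11.17, 10.78 and 10.85 in control lungs, with overlapping groups and a difference of 0.34 (adjusted p = 0.5). Of the 8 listed Ah receptor targets, 7 were on the array, 4 were tested in each tissue and none was called. Outside the P450 genes, Nqo1, a quinone reductase, differed by -0.78 in liver (adjusted p = 0.117) and by 0.02 in lung. Tiparp, an ADP-ribosyltransferase, differed by 0.19 in liver and -0.18 in lung, with overlapping groups in both. Aldh3a1, an aldehyde dehydrogenase, differed by -0.96 in lung (adjusted p = 0.327) and lay near the lowest value in liver. Ahrr, the Ah receptor repressor, lay at the lowest value on all arrays.

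Cyp2b10, the gene that the phenobarbital-responsive receptor CAR induces most plainly in mouse liver, read lower with tumor in both organs. In liver it read 8.46, 8.03 and 6.27 in tumor livers 1 to 3, against 9.03, 10.72 and 9.86 in control livers 1 to 3. The groups did not overlap, and the spread within each was wide. The means were 7.59 ± 1.16 in tumor livers and 9.87 ± 0.84 in control livers (SD, n = 3 each), a difference of -2.28 ± 0.70 (log2, SE) with a limma adjusted p of 0.119, and -1.62 without tumor liver 3. Its 3 probe sets differed by -2.96 to -2.23 in liver, with no overlap of groups on any of them. In lung the gene read 13.66, 13.82 and 13.58 in tumor lungs 1 to 3, against 14.10, 14.13 and 14.32 in control lungs 1 to 3. Again every tumor array was lower, by a smaller step, with a difference of -0.50 ± 0.11 (limma adjusted p = 0.139) and probe sets at -0.65 to -0.50. Without tumor lung 1 and control lung 3 the difference was -0.41. The difference between the tissues' effects was 1.79 ± 0.75 (adjusted p = 0.260).

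The listed targets of CAR and PXR, which include Cyp2b10 and other P450 genes described here, gave no call in either tissue. Of 18 listed genes 16 were on the array, with 15 tested in liver (10 with a lower mean, 5 with a higher mean) and 7 in lung (all with a lower mean). Cyp2b10 is counted in both tissues, and 8 of the genes tested in liver and 6 of those in lung lay outside the P450 genes. Slco1a4, an organic anion transporter, differed by -1.23 in liver (limma adjusted p = 0.123), Abcc2, an export pump, by -0.52 (adjusted p = 0.185), and Aldh1a1, a retinal dehydrogenase, by -0.33 (adjusted p = 0.106), each with groups that did not overlap. Nr1i2, which codes for PXR, differed by -0.60 (adjusted p = 0.178), and Nr1i3, which codes for CAR, by -0.14. Of all genes tested, 60.2% in liver and 53% in lung had a lower mean with tumor.

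**Figure D3:**
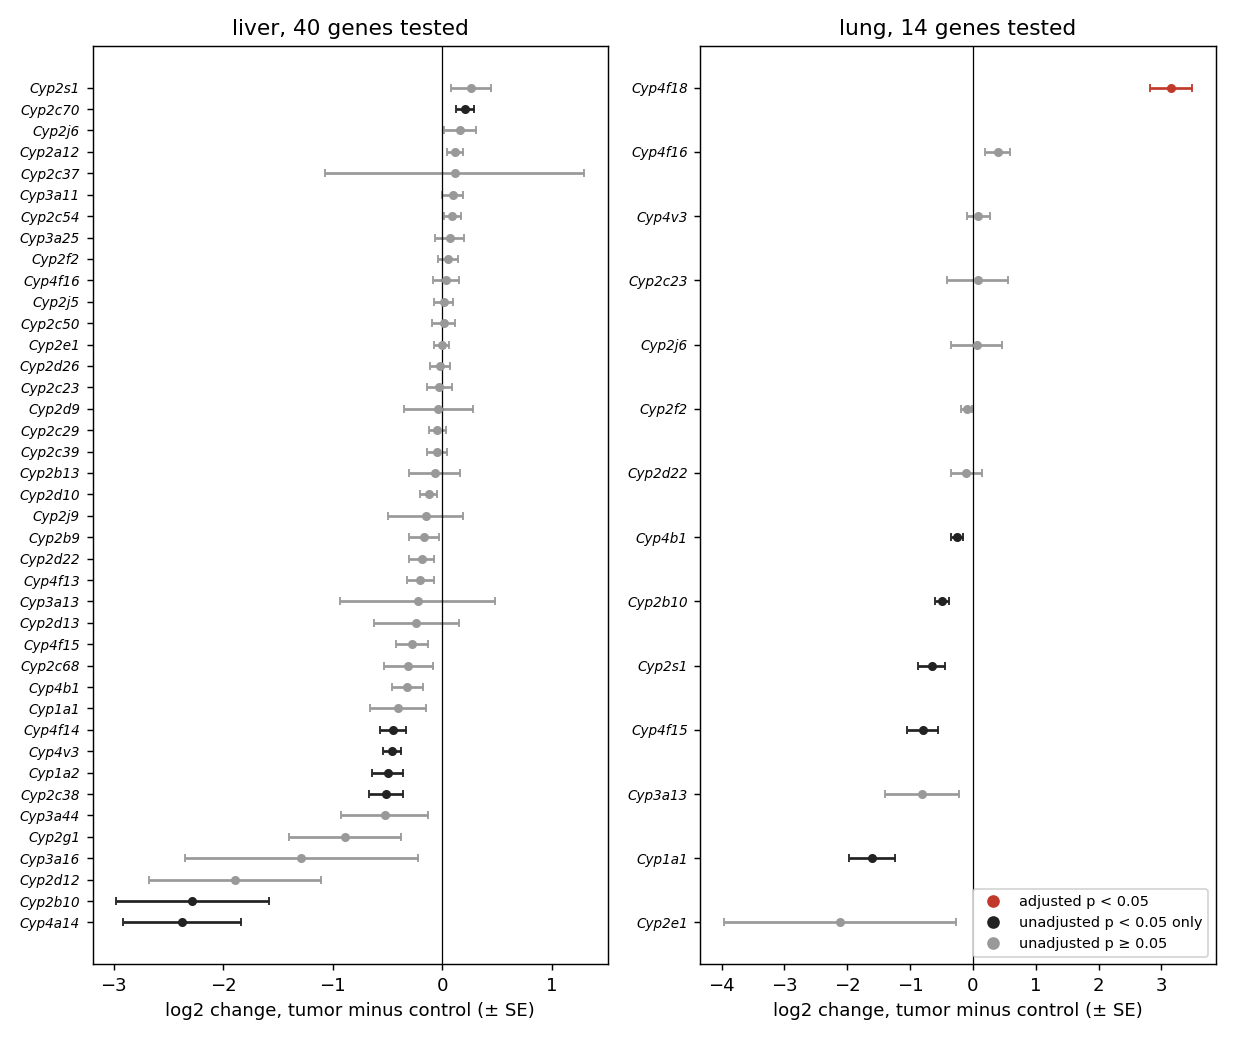
Difference between tumor-bearing and control arrays (log2, horizontal axis, point with its SE) for the 40 P450 genes tested in liver (left) and the 14 tested in lung (right), ordered by size; red marks an adjusted p under 0.05, black an unadjusted p under 0.05 only and grey the rest. Cyp4f18 at 3.15 in lung is the single red point, Cyp4a14 and Cyp2b10 lie at -2.38 and -2.28 in liver, the first fitted to tumor livers below the filter value, and 33 of the 40 liver genes lie within 0.5 of 0.

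Most P450 genes of the liver differed little between the groups. None of the 40 tested was called, where 1.87% of the 7712 genes tested in liver were called, 1.23% lower and 0.635% higher. Without adjustment 7 genes had a p under 0.05, or 17.5% of the 40, a smaller share than the 25.9% of all genes. Of these 6 were lower and 1 was higher, where 17.7% of all genes were lower and 8.17% higher. The groups did not overlap for 10 of the 40 genes (25%, against 33.1% of all genes). They were 8 below and 2 above, where 22.7% of all genes lay below and 10.4% above. 33 of the 40 differed by less than 0.5 in either direction, a share close to the 83.1% of all genes. The median difference was -0.14 over the 40 genes and -0.07 over all genes tested in liver.

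Of the 26 Cyp2 genes tested in liver, 17 had a lower and 9 a higher mean in tumor livers, with a median of -0.04. The groups were apart for 5 of them, Cyp2b10, Cyp2c38 and Cyp2d10 below and Cyp2a12 and Cyp2c70 above, and overlapped for the rest. Cyp2e1, which oxidises ethanol and acetaminophen, read 15.39, 15.29 and 15.43 in tumor livers 1 to 3, and 15.38, 15.37 and 15.37 in control livers 1 to 3. The groups overlapped, and the difference of -0.01 ± 0.07 was smaller than its SE. Cyp2f2, the naphthalene-activating enzyme best known from club cells, differed by 0.05 ± 0.09 in liver and by -0.10 ± 0.09 in lung. Cyp2j5, an arachidonic acid epoxygenase, differed by 0.01, Cyp2d9, a testosterone hydroxylase of male liver, by -0.04, and Cyp2d22 by -0.19, all with overlapping groups. A second probe set of Cyp2j5 differed by -0.22 with groups that did not overlap, so its probe sets disagree.

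Within the Cyp2c subfamily 9 of 11 genes were tested in liver, 4 with a higher and 5 with a lower mean. Cyp2c38 read 11.44, 11.20 and 11.25 in tumor livers 1 to 3, against 12.03, 11.89 and 11.52 in control livers 1 to 3. All tumor livers were lower, with a difference of -0.52 ± 0.15 (limma adjusted p = 0.114). Cyp2c70, which makes muricholic acids, the bile acids typical of mice, ran the other way, at 14.72, 14.54 and 14.63 in tumor livers and 14.49, 14.35 and 14.43 in control livers. Its groups did not overlap either, and the difference was 0.21 ± 0.08 (adjusted p = 0.184). Cyp2c29 differed by -0.04, Cyp2c39, a retinoic acid hydroxylase, by -0.05, and Cyp2c37 varied too much within groups to be read, at 6.12, 6.36 and 3.29 in tumor livers and 3.17, 5.77 and 6.49 in control livers. In lung only Cyp2c23, an arachidonic acid epoxygenase best known from kidney, was tested, with a difference of 0.08 and overlapping groups.

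All 6 Cyp2d genes tested in liver had a lower mean in tumor livers, and none was called. Cyp2d12 had the largest fitted difference among them, at 5.15, 4.24 and 2.30 in tumor livers 1 to 3, against 6.04, 5.0 and 6.32 in control livers 1 to 3. Tumor liver 1 lay above control liver 2, so the groups overlapped (difference -1.89, limma adjusted p = 0.201). Cyp2d10 was the 1 Cyp2d gene whose groups were apart, at 14.36 to 14.50 in tumor livers and 14.52 to 14.63 in control livers (difference -0.12, adjusted p = 0.344). The remaining Cyp2d genes differed by at most 0.24 in size. Among the Cyp2b genes, Cyp2b9, known for its female bias, differed by -0.16 and Cyp2b13 by -0.07. Cyp2g1, best known from the olfactory mucosa, differed by -0.89 with overlapping groups, and Cyp2a12, a steroid hydroxylase, by 0.12 with every tumor liver above every control liver. A probe set listed with more than 1 Cyp2a gene differed by -0.13 in liver. In lung it read 10.18, 9.37 and 8.39 in tumor lungs 1 to 3, against 10.36, 9.48 and 11.78 in control lungs 1 to 3. The groups overlapped in both tissues, and the lung difference was -1.23 (limma adjusted p = 0.536 in a fit of every probe set).

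Cyp2s1, an epithelial enzyme that oxidises retinoids and eicosanoids, was the third Cyp2 gene read higher in lung than in liver. It read 11.19, 10.71 and 10.44 in tumor lungs 1 to 3, against 11.30, 11.34 and 11.65 in control lungs 1 to 3. All tumor lungs were lower, tumor lung 1 by the least, with a difference of -0.65 ± 0.21 (limma adjusted p = 0.281), or -0.75 without tumor lung 1 and control lung 3. In liver its values were close to the filter, 4.48 to 5.01 in tumor livers and 4.48 to 4.78 in control livers, with a difference of 0.26. The tissues' effects differed by -0.91 ± 0.30 (adjusted p = 0.165).

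**Figure D4:**
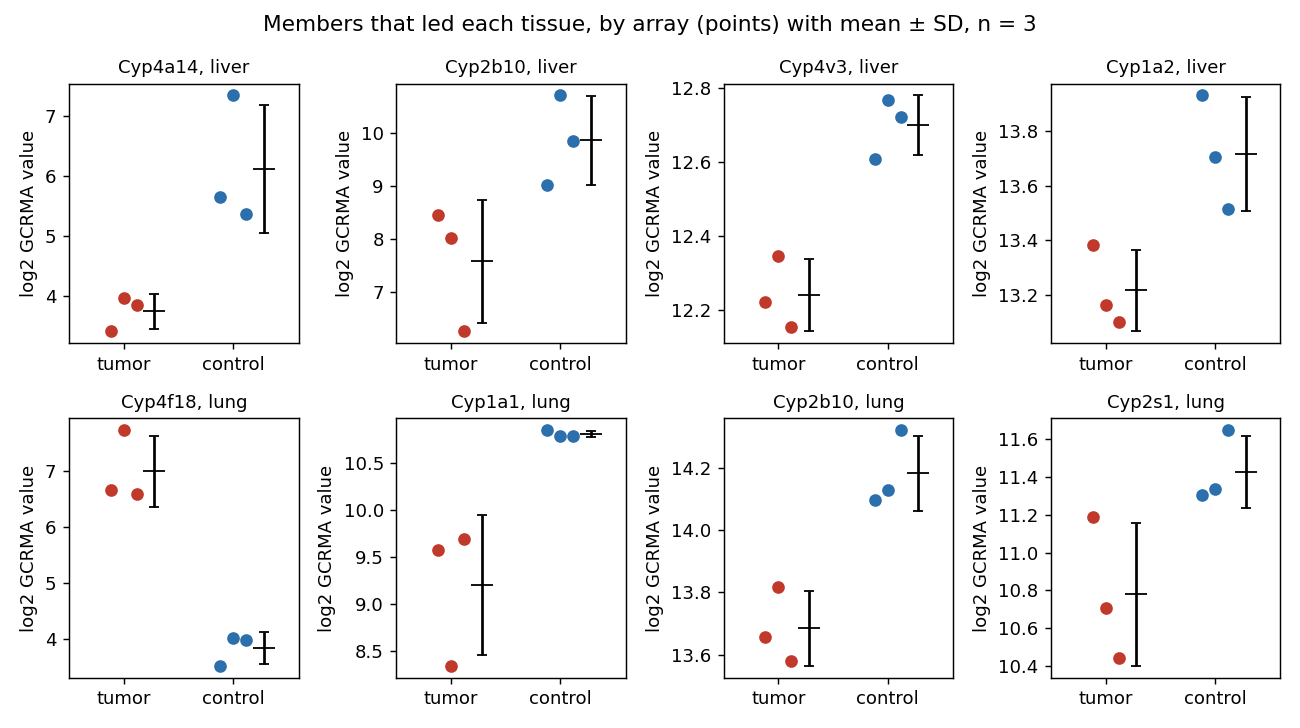
log2 GCRMA value (vertical axes, each with its own range) on each array (points) with the mean and SD beside them, for Cyp4a14, Cyp2b10, Cyp4v3 and Cyp1a2 in liver (top) and Cyp4f18, Cyp1a1, Cyp2b10 and Cyp2s1 in lung (bottom), with 3 tumor-bearing arrays (red) left of 3 control arrays (blue). In every panel the groups are apart, with the tumor arrays below except for Cyp4f18, and Cyp4f18 is the gene whose adjusted p passed the threshold.

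The Cyp3a genes, which include Cyp3a11, the main target of PXR, showed no separation of the groups in either tissue. Cyp3a11 differed by 0.10 and Cyp3a25 by 0.07 in liver. Cyp3a13, the form best known from the intestine, read 13.47, 12.63 and 10.65 in tumor livers 1 to 3, against 12.34, 12.62 and 12.47 in control livers 1 to 3. The tumor livers spanned the control values on both sides, and the difference of -0.23 became 0.57 without tumor liver 3. Cyp3a16 and Cyp3a44, known from fetal and female liver, differed by -1.29 and -0.53 with overlapping groups. A probe set listed with more than 1 Cyp3a gene differed by 0.08. In lung Cyp3a13 was the only Cyp3a gene tested, at 4.80, 3.27 and 2.70 in tumor lungs and 4.34, 3.83 and 5.04 in control lungs. Its highest lung arrays were tumor lung 1 and control lung 3, which carried more hepatocyte RNA, and it entered the test through these and control lung 1.

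Family 4 opens with Cyp4a14, a fatty acid hydroxylase that PPAR alpha induces, read 3.41, 3.97 and 3.84 in tumor livers 1 to 3, against 5.64, 7.34 and 5.37 in control livers 1 to 3. All tumor livers lay under the filter value of 4 and all control livers above it, so the gene entered the test through the control livers alone. The fitted difference was -2.38 ± 0.54 (log2, SE), with a limma adjusted p of 0.0764. The control mean of 6.12 lay 4.35-fold above the filter value. Single control livers ran from 5.37 to 7.34, so this is not a minimum, and no fold between the groups is given. A probe set listed with more than 1 Cyp4a gene had the same order, at 10.56, 11.26 and 10.92 in tumor livers 1 to 3 and 11.96, 12.36 and 11.32 in control livers 1 to 3. The groups did not overlap on it, with a difference of -0.97 and an adjusted p of 0.137 in a fit of every probe set. In lung both probe sets lay at 2.04 to 2.51.

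Genes that PPAR alpha controls gave a mixed picture. Of the 18 listed, 14 were on the array and 11 were tested in liver, with 4 higher and 7 lower means, a median of -0.02 and no call. Cyp4a14 is counted among the 7, and 10 of the 11 lay outside the P450 genes described here. Acot1, an acyl-CoA thioesterase, read 7.13, 8.93 and 8.35 in tumor livers and 9.73, 9.85 and 10.37 in control livers (difference -1.85, limma adjusted p = 0.0957). Plin2, a lipid droplet coat gene, lay higher in every tumor liver (difference 0.41, adjusted p = 0.0710). Cpt1a, Ehhadh, Hadha and Acadm, genes of fatty acid oxidation, differed by at most 0.06 in size, with overlapping groups. Ppara itself differed by 0.29 with overlapping groups.

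Cyp4v3, a fatty acid hydroxylase whose human counterpart is mutated in Bietti crystalline dystrophy, had the smallest p of the P450 genes in liver. It read 12.22, 12.35 and 12.15 in tumor livers 1 to 3, against 12.61, 12.77 and 12.72 in control livers 1 to 3. The groups were clearly apart for a small step, with a difference of -0.46 ± 0.09 and a limma adjusted p of 0.0583. A second probe set differed by -0.33, also without overlap. With eBayes trend and robust options its adjusted p was 0.0332. In lung it differed by 0.09, and the tissues' effects differed by 0.55 ± 0.22 (adjusted p = 0.235).

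Cyp4f14, which hydroxylates leukotriene B4 and vitamin E, read 12.32, 12.24 and 11.95 in tumor livers 1 to 3, against 12.62, 12.67 and 12.57 in control livers 1 to 3. Every tumor liver was lower, with a difference of -0.45 ± 0.12 (limma adjusted p = 0.0942). In lung it lay at the lowest value on all arrays. Cyp4f15 ran lower in lung, at 4.60, 3.92 and 4.22 in tumor lungs 1 to 3 and 4.63, 5.14 and 5.37 in control lungs 1 to 3, by a difference of -0.80 ± 0.25 (adjusted p = 0.262). These values lay near the filter, and tumor lung 1 was only just below control lung 1. The gene read 11.35 to 12.03 in liver, and tumor lung 1 and control lung 3, with more hepatocyte RNA, were the highest of their groups. With a single lung array left out the difference ran from -1.01 to -0.64. Cyp4f16 differed by 0.39 in lung with overlapping groups. A probe set listed with more than 1 Cyp4f gene differed by 0.38 in liver and 0.23 in lung, with overlapping groups in both. Cyp4f18 was thus the 1 Cyp4f gene of 3 tested in lung whose tumor arrays all lay above the control arrays.

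Cyp4b1, the enzyme that activates furan toxins in the lung, was abundant there, at 14.41, 14.57 and 14.70 in tumor lungs 1 to 3 and 14.83, 14.84 and 14.76 in control lungs 1 to 3. The tumor lungs were lower by a small step, -0.25 ± 0.10 (limma adjusted p = 0.379). In liver it read 8.43, 8.05 and 8.45 in tumor livers and 8.78, 8.48 and 8.62 in control livers, again without overlap (difference -0.32, adjusted p = 0.227). The tissues' effects differed by 0.07. Over the 7 family 4 genes tested in liver, 6 had a lower mean, 4 of them without overlap, and the median was -0.32. Of all genes tested in liver, 60.2% had a lower mean and 22.7% lay below without overlap.

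Cyp2f2 and Cyp4b1 are genes of club cells, and club cell markers are given beside the lower lung values. All 9 listed markers were on the array, 7 were tested in lung and none was called, and Reg3g and Muc5b lay at the lowest value. Their mean was 9.01, 8.49 and 8.97 in tumor lungs 1 to 3, against 8.75, 8.78 and 9.12 in control lungs 1 to 3, so the groups overlapped. Scgb1a1, the main secretory protein of club cells, differed by 0.04, while Cldn10 and Aldh1a7 lay lower in every tumor lung, by differences of -0.68 (limma adjusted p = 0.286) and -0.53 (adjusted p = 0.205). The part of club cells in the values of Cyp1a1, Cyp2b10, Cyp2s1 and Cyp4b1 was not tested. The 6 cardiac muscle markers averaged 6.12 to 9.15 in tumor lungs and 4.45 to 9.95 in control lungs. Of these, Nppa lay at the lowest value on every lung array, and the source of the other transcripts was not tested.

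The P450 genes of hepatocytes were visible on the lung arrays that carried hepatocyte RNA. Of the 27 genes tested in liver alone, 6 read above 4 in tumor lung 1 and 13 in control lung 3, and none did on the other 4 lung arrays. Cyp2c29 read 6.70, 2.99 and 2.29 in tumor lungs 1 to 3 and 3.04, 2.28 and 9.72 in control lungs 1 to 3. Cyp3a11 read 5.10, 2.41 and 2.39 in tumor lungs and 2.50, 2.39 and 8.76 in control lungs. On both genes the high arrays were tumor lung 1 and control lung 3, as for Alb, the albumin gene of hepatocytes.

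Cyp2e1 was tested in lung and followed the same arrays. It read 9.97, 5.45 and 5.35 in tumor lungs 1 to 3, against 8.26, 6.61 and 12.24 in control lungs 1 to 3. Alb read 14.39, 10.38 and 8.96 in tumor lungs and 11.08, 9.31 and 14.65 in control lungs. The Cyp2e1 groups overlapped, with the largest lower value of the genes tested in lung, -2.11 ± 1.85 (limma adjusted p = 0.686). It was -0.51 without control lung 3 and -3.64 without tumor lung 1, so leaving out either array alone moved it widely. Without both it was -2.04, close to the value on all 6 lung arrays. Cyp2f2 and Cyp4b1, both abundant in lung, varied by less than 0.5 over the 6 lung arrays.

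**Figure D5:**
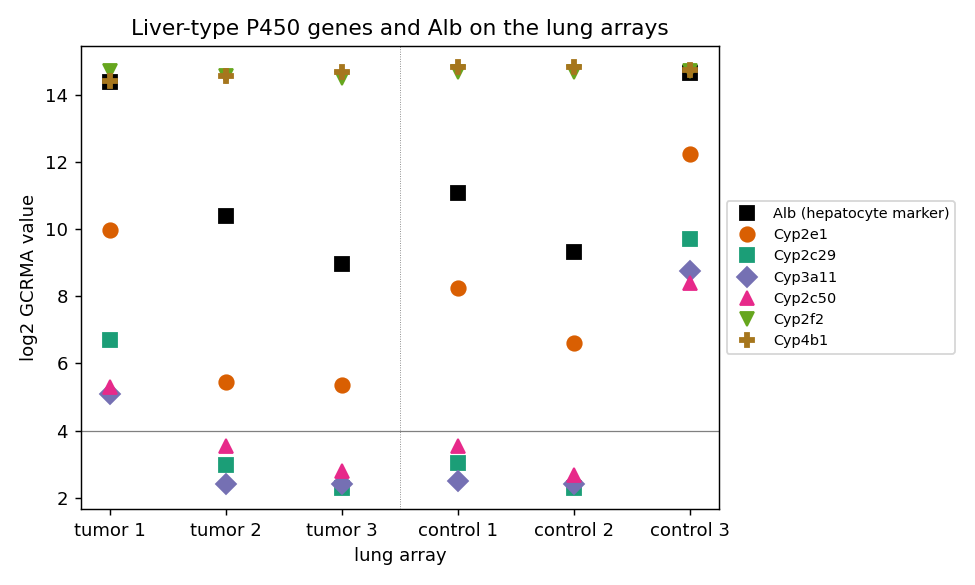
log2 GCRMA value (vertical axis) of Alb and of 6 P450 genes on each lung array (horizontal axis), with the 3 tumor-bearing arrays left of the dotted line, the 3 control arrays right of it and a grey line at the filter value of 4. Alb, Cyp2e1, Cyp2c29, Cyp3a11 and Cyp2c50 stand high on tumor 1 and control 3, at 5.10 or more for the P450 genes, while Cyp2f2 and Cyp4b1 stay between 14.41 and 14.84 on all 6 arrays.

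P450 enzymes depend on heme and on electron donors, and 13 of the 15 listed genes of that supply were on the array, all tested in both tissues, none called. Alas1, the rate-limiting enzyme of heme synthesis, read 12.83, 13.15 and 12.74 in tumor lungs 1 to 3, against 13.71, 13.84 and 13.74 in control lungs 1 to 3. All tumor lungs were lower, with a difference of -0.86 ± 0.13 (limma adjusted p = 0.0558), and in liver Alas1 overlapped (difference -0.26). Hmox1, which breaks heme down, differed by -0.86 in lung (adjusted p = 0.172) and by 0.55 in liver (adjusted p = 0.114), in both without overlap. Alad, the next enzyme of heme synthesis after Alas1, differed by -0.41 in liver (adjusted p = 0.106). The electron carrier gene Cyb5a differed by -0.07 in liver and -0.12 in lung.

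Of 25 listed nuclear receptors and liver factors upstream of P450 genes, 24 were tested in liver. Ahr and Nr0b2 fell and no other passed the threshold. Nr0b2, which codes for the repressor SHP, read 9.88, 8.89 and 8.70 in tumor livers 1 to 3, against 11.27, 11.18 and 11.64 in control livers 1 to 3, a difference of -2.21 ± 0.34 (limma adjusted p = 0.0478). Rxrb, a partner of CAR, PXR and PPAR alpha, differed by -0.56 (adjusted p = 0.0692), while Hnf4a differed by -0.16 and Rxra by 0.02 with overlapping groups. Onecut1, Cebpa, Arnt and Dbp ran the other way, by 1.61, 0.49, 0.46 and 0.29, each higher in every tumor liver. Without overlap 4 genes of the list lay above and 4 below, where 10.4% of all genes lay above and 22.7% below. In lung 16 of these genes were tested and none was called.

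Among P450 genes outside families 1 to 4, none passed the threshold in liver. Cyp17a1, not a gene of bile acid synthesis, had the largest difference, at 9.65, 6.20 and 9.10 in tumor livers 1 to 3. It read 11.25, 9.94 and 9.90 in control livers 1 to 3, without overlap (difference -2.05, limma adjusted p = 0.245). Some genes of bile acid synthesis also read lower. Cyp7a1, the rate-limiting enzyme of that pathway, read 11.52, 12.46 and 12.53 in tumor livers 1 to 3, against 13.44, 13.68 and 13.57 in control livers 1 to 3 (difference -1.40, limma adjusted p = 0.0642). Cyp39a1 differed by -1.69 (adjusted p = 0.0673) and Cyp7b1 by -0.94 (adjusted p = 0.0912), and the groups did not overlap on any of these. Cyp8b1 and Cyp27a1, which also act in bile acid synthesis, differed by -0.03 and -0.04 with overlapping groups. Cyp51, of cholesterol synthesis, was higher in every tumor liver by 0.57 (adjusted p = 0.115). Of 15 P450 genes listed outside families 1 to 4, 13 were on the array, 8 were tested in liver and none was called. Without overlap 4 of the 8 lay below and 1 above, where 22.7% of all genes lay below and 10.4% above.

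Position in the lobule, sex bias and inflammation were read from lists of marker genes. Of 15 pericentral genes tested in liver, where most P450 transcripts are made, 14 had a lower mean in tumor livers, 5 without overlap, with a median of -0.10 and no call. These counts include Cyp1a2, Cyp2e1 and Cyp2c29, and Cyp1a2 is among the 5. The 12 genes outside the P450 genes described here had a median of -0.16. Of all genes tested in liver, 22.7% lay below without overlap and 60.2% had a lower mean. Of 10 periportal genes, which include Cyp2f2, 7 had a higher mean, with a median of 0.05 and no call. Of 11 female-biased genes tested 9 had a lower mean, and of 8 male-biased genes 4 did, with no call in either list. Cyp2b9, Cyp2b13, Cyp3a16 and Cyp3a44 are counted among the 9, and Cyp2d9 among the 4. In each list 7 genes tested lay outside the P450 genes described here. Acute phase genes, which hepatocytes induce in inflammation, gave 13 higher means of 21 with no call. Of these genes 6 lay above without overlap and 0 below, where 10.4% of all genes lay above. Saa1 overlapped between groups, at 14.81 to 15.04 in tumor livers and 13.87 to 15.74 in control livers, and Serpina3n had the smallest p (difference 0.59, limma adjusted p = 0.0545).

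The tumor effect in lung was set against that in liver for the 41 genes that passed the filter over all 12 arrays. Cyp4f18 was the 1 gene called, where 1.55% of the 8433 genes tested were called, 1.03% higher and 0.522% lower in lung than in liver. Without adjustment 9 genes had a p under 0.05 (22.0%, against 17.2% of all genes). Of these, 7 had a higher and 2 a lower value of lung minus liver, where 10.9% of all genes were higher and 6.26% lower. Among these 9, Cyp2c38, Cyp2d12, Cyp4a14 and Cyp4f14 read below 4 on every lung array and Cyp4f18 on every liver array, so for these 5 the value rests on 1 tissue. Cyp1a1, Cyp2b10, Cyp2s1 and Cyp4v3 passed the filter in both tissues. Next after Cyp4f18 came Cyp4a14 at 2.32 ± 0.60 (limma adjusted p = 0.0933), whose lung arrays lay near the lowest value, then Cyp4f14 at 0.45 (adjusted p = 0.142), which lay at the lowest value in lung.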

How the data were processed

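RNA from 12 tissue samples was measured on Affymetrix arrays. The deposited values are log2 expression per probe set made by the authors with GCRMA, per the submitters' processing notes, which also name limma. No version or setting of either is given in the sources used here. GCRMA corrects background by probe sequence, which leaves weak probe sets at a shared lowest value. Gene names are from GEO's platform annotation: 20380 probe sets had 1 symbol, 691 several and 1555 none. All 49 symbols were current in RefSeq.

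Where a gene had several probe sets, that of highest mean across the arrays stood for it. Tumor-bearing and control arrays of a tissue were set against each other in R 4.3.3 by limma 3.58.1, fitted by lmFit with eBayes, with Benjamini-Hochberg adjustment over all genes tested, and every p and adjusted p given is limma's. The script was tested on simulated data. The P450 genes, gene lists and tests were chosen with earlier results of these data known. Genes named are those past the threshold in a tissue or in the difference between tissues, those with an unadjusted p under 0.05, the 8 with the largest difference per tissue, a fixed set of well-known members and, of each list, genes past the threshold and up to 3 with the largest difference; other genes, such as Cpt1a, Hnf4a, Scgb1a1 and Saa1, were named after their values were seen. Alternatives covered the filter, probe sets, further normalization, eBayes options, a single fit of all arrays, a replicate block, thresholds and arrays left out. The use of every probe set of the array was an alternative chosen after seeing the data. The labels say that the tissues came from 3 tumor-bearing and 3 control mice. Replicate numbers were not used as pairs.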

Additional observations from a re-analysis of the deposited data

Results flagged for a closer look

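The fit of the tumor effect in lung minus that in liver gave 2.82 (log2) for Cyp4f18 (limma adjusted p = 0.0410 for the interaction). The gene read 6.59 to 7.73 in tumor lungs and 3.52 to 4.02 in control lungs. In liver it lay at 2.34 to 3.37 in tumor livers and 2.34 to 3.37 in control livers, below the filter value of 4, so its liver difference was not measurable. The value therefore stands for the lung difference, and it does not show that the tissues differ in response.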

How the results depend on the processing

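In liver, the count of 0 called genes became 2 with eBayes trend and robust options (Cyp4a14, tested through its control livers alone, and Cyp4v3), 3 at an adjusted p under 0.1 (these and Cyp4f14) and 4 with all 12 arrays in 1 fit (Cyp2b10, Cyp2c38, Cyp4a14 and Cyp4f14); with each array left out in turn it ranged from 0 to 0. The liver median of -0.14 was -0.044 without a filter and -0.18 to -0.067 with an array left out, the last without tumor liver 3. In lung, the count of 1 became 2 with all 12 arrays in 1 fit (Cyp1a1, lower, beside Cyp4f18) and 0 without a filter, with the replicate block (Cyp4f18 adjusted p = 0.0777), without tumor lung 1 and control lung 3, and with any array left out (0 to 0). The lung median of -0.18 was -0.49 with every probe set of the array and -0.35 to -0.10 with an array left out. The difference between tissues gave 2 calls at an adjusted p under 0.1 (Cyp4a14 and Cyp4f18), 1 with the replicate block, and 0 without a filter, with quantile normalization, without the 2 lung arrays and with any array left out (0 to 0). Over 17 alternatives the Cyp4f18 difference in lung ran from 2.79 to 3.39, and 9 of them lost the call, and over 22 alternatives the difference between tissues ran from 2.45 to 3.14, and 15 of them lost the call. No called value changed sign. Of 395 values of the 25 genes named in liver, 377 kept their direction and side of the threshold, 6 newly passed it and 12, in 7 genes with differences near 0 or wide scatter, moved. Of 198 values of 12 genes in lung, 184 kept both, 1 newly passed, 9 lost the call and 4, in 2 genes, moved. Same-numbered tumor and control samples correlated at -0.22 to 0.20 in their deviations. In both tissues number 2 matched its own number best, and numbers 1 and 3 did not. With 3 arrays a group this cannot decide whether the numbers pair them. Same-numbered lung and liver samples correlated at 0.04 to 0.13, each best with its own number, a hint from the data that the labels do not state. A gene near the lowest value, such as Cyp4f18 in liver or Cyp4a14 in lung, has no measurable difference there.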
